A study of Mus musculus with 6 samples.

Results

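The cytosolic ribosomal protein (RP) genes were the protein-coding mouse genes whose symbol is Rpl or Rps followed by a number, together with Rplp0, Rplp1, Rplp2 and Rpsa. The annotation names 84 such genes. Of these, 83 had at least 10 estimated counts summed over the 6 libraries, among 18506 genes tested, and Rpl10l had no counts. The 83 comprised 50 genes of the large (60S) and 33 of the small (40S) subunit. Besides that count minimum, the rule uses symbols only.

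The libraries came from bone marrow–derived macrophages (BMDMs) of 2 genotypes, with 3 libraries each. Drp1 KO cells came from MɸDrp1 KO mice (LysM-Cre+/- Drp1 fl/fl), which lack the mitochondrial fission GTPase DRP1 in cells that express Cre from the lysozyme M promoter. WT cells came from LysM-Cre+/- Drp1+/+ mice, so both groups carried Cre, and only cells in which Cre acted lose the floxed gene. The LysM-Cre line was on a C57BL/6J background, and the mice of the study were male and female and 8 to 12 weeks old. Marrow of 2 mice per genotype was pooled, and whether each library came from its own pool is not given in the sources used here, so p-values measure the spread between libraries. At day 7 of culture with L929-conditioned medium, a source of M-CSF, both groups were kept for 8 hours in serum-free medium under 2.1% oxygen. This hypoxia with serum starvation (HSS) is the study's culture model of ischemia, and no unstarved library was analysed here.

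RPs are the protein part of the cytosolic ribosome, and each is normally present once per subunit, except the stalk proteins RPLP1 and RPLP2. RP mRNAs are among the most abundant in a cell. Most begin with a cytosine followed by an unbroken run of pyrimidines, the 5′ terminal oligopyrimidine (TOP) motif. Through this motif mTOR signalling and the RNA-binding protein LARP1 set the translation and stability of RP mRNAs when nutrients or growth factors are scarce. Poly(A) RNA-seq measures the amount of these mRNAs relative to all others, and neither their translation nor the number of ribosomes.

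The depth was 23252043 to 32050031 gene-level counts per library. The targeted gene, Dnm1l, which encodes DRP1, averaged 72.6 ± 2.61 CPM (counts scaled by library size; SD, n = 3) with WT and 61.9 ± 3.91 CPM with Drp1 KO, without overlap, at a log2 fold change of -0.23 ± 0.0921 (SE; edgeR adjusted p = 0.248). Gene-level counts also take reads from exons that Cre does not remove. All 8 macrophage markers were detected and took 1.38% to 1.42% of the counts of a WT library and 1.22% to 1.47% of those of a Drp1 KO library. Of these 8, 3 passed an adjusted p of 0.05 by edgeR, beside 3.36% of all genes. They were the Fc receptor gene Fcgr1 at 1.34 and Csf1r and Mertk, which encode receptors for M-CSF and for dying cells, at -0.52 each on the log2 scale. Of 9 neutrophil markers, 6 passed the count filter and took 0.000659% to 0.00217% of counts with WT and 0.00195% to 0.00494% with Drp1 KO. These 6 had log2 fold changes above 0, and 4 of them were higher by the study's criteria given later, beside 7.19% of all genes. At an adjusted p of 0.05, 0 passed by edgeR (3.36% of all genes), 2 by DESeq2 (6.24%) and 4 by edgeR with libraries paired by number (12%). Ly6g, Retnlg and Elane did not pass the filter. Of the markers of lymphocytes, dendritic cells, fibroblasts and red cells, 4 of 6, 4 of 5, 5 of 5 and 1 of 4 passed the filter. Together 0 passed at an adjusted p of 0.05 by edgeR or DESeq2, and 1 at an unadjusted p under 0.05 (16.4% of all genes). The 10 cell cycle genes took 0.0573% to 0.0666% with WT and 0.0526% to 0.0653% with Drp1 KO. In bulk RNA, a different mix of cells and a different amount of RNA per cell cannot be told apart, and the part of these markers in the results was not tested.

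RP mRNA levels spanned a wide range in WT BMDMs. On the TPM scale, which divides by transcript length and so allows genes to be compared, the median RP gene was at 495 TPM and 74 of 83 exceeded 100 TPM. The highest mean was that of Rpl13a (7368 ± 223 TPM, SD, n = 3), whose protein is also known as a regulator of inflammatory mRNAs in macrophages. Among the next highest were Rpl26 (6249 ± 606 TPM), which lies at the exit of the peptide tunnel, the stalk gene Rplp1 (3728 ± 297 TPM) and Rps6, the classical substrate of S6 kinase (1747 ± 94.2 TPM). At the other end stood 3 paralogs, Rpl39l (0.226 ± 0.268 TPM), Rpl3l (0.278 ± 0.241 TPM) and Rps4l (0.682 ± 0.472 TPM).

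In Drp1 KO BMDMs, single RP genes moved in both directions, and the median over the group lay close to that of all genes. Rps27, Rps9, Rpl36a and Rpl21 fell by 39.8%, 30.8%, 46.8% and 40.1% by the fitted fold change, and Rps15a and Rps27l rose by 54.0% and 61.1%. Over the 83 genes the log2 fold change had a median of -0.07, beside 0.00 over all genes tested, and 50 of the 83 lay within 0.32 of 0 on that scale, the fold threshold of the study. By edgeR's quasi-likelihood test, 7 RP genes passed an adjusted p of 0.05, which is 8.43% of them beside 3.36% of all genes tested. Higher were 2 RP genes, beside a background of 2.29%, and lower were 5, beside 1.06%. By the criteria of the study, a log2 fold change beyond 0.32 with an unadjusted p under 0.05, 29 RP genes passed (34.9%, beside 12.7% of all genes). Of these, 9 were higher, beside a background of 7.19%, and 20 were lower, beside 5.48%. The 3 libraries of 1 group lay wholly above or below those of the other for 11 RP genes higher (background 11.7%) and 16 lower (background 10.3%), 32.5% in all, beside 21.9% of all genes.

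The count at an adjusted p of 0.05 depended on the fit. With libraries of the same replicate number treated as pairs, 28 RP genes passed (9 higher, 19 lower), beside 12% of all genes (6.73% higher, 5.22% lower), and the 7 genes were among the 28. The count was 18 when Drp1 KO library 1 was left out (beside 4.96% of all genes), 3 when Drp1 KO library 3 was (1.93%) and 6 when WT library 1 was (4.08%). It was 2 when Drp1 KO library 2 (1.49%), WT library 2 (1%) or WT library 3 (1.2%) was left out.

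**Figure D1:**
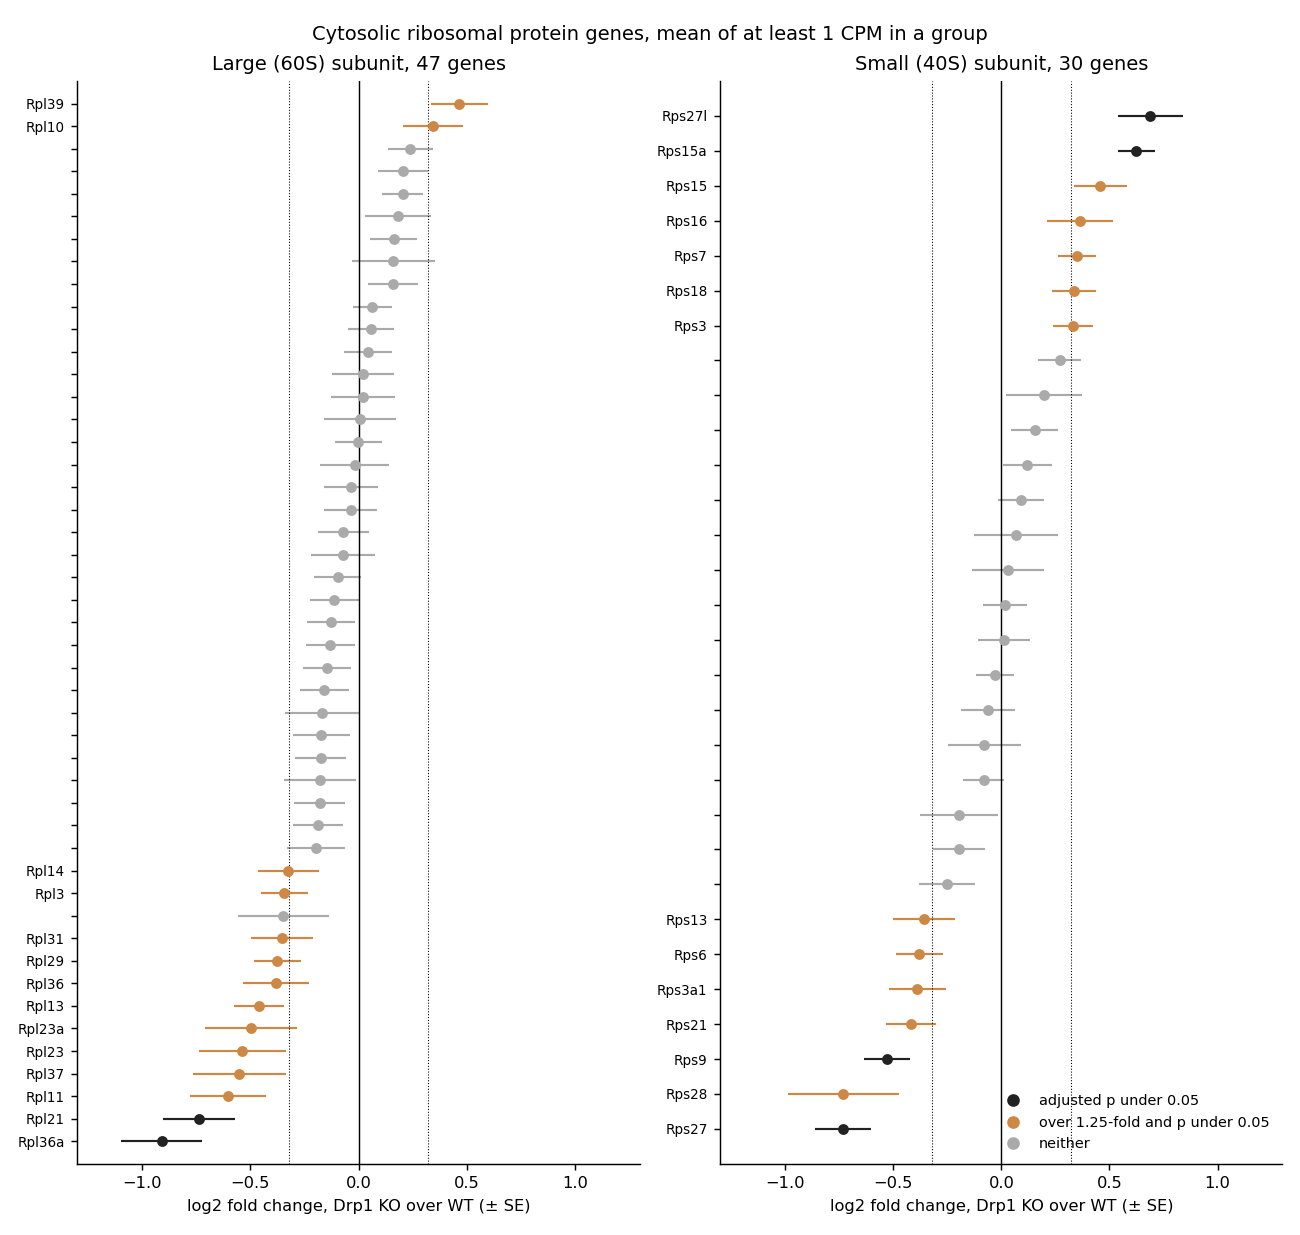
Log2 fold change of Drp1 KO over WT (x axis, points, with SE as bars) for 77 of the 80 RP genes that average 1 CPM or more in a group, large subunit left and small subunit right, with symbols at genes that pass a criterion. Dotted lines mark the study's fold threshold, 0.32 either side of 0; black points have an adjusted p under 0.05, from -0.91 for Rpl36a to 0.69 for Rps27l, and orange points pass the study's criteria only.

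Rps27, a zinc finger protein of the 40S subunit, had 91.3, 109.5 and 118 CPM in WT and 71.5, 66.0 and 54.4 CPM in Drp1 KO libraries (log2 fold change -0.73 ± 0.131, adjusted p = 0.0149). Rps9, which lies near the mRNA entry channel of the 40S subunit, had 330.1, 305 and 359 CPM in WT and 247, 236 and 205 CPM in Drp1 KO libraries (-0.53 ± 0.106, adjusted p = 0.0248). For both genes the groups did not overlap, and the lowest library was Drp1 KO library 3. Rps9 was at -0.44 (adjusted p = 0.0729) when counts were scaled by transcript length.

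In the large subunit, Rpl36a, which reaches the exit site for tRNA, had 28.2, 31.5 and 32.2 CPM in WT and 22.1, 14.4 and 12.7 CPM in Drp1 KO libraries (log2 fold change -0.91 ± 0.186, adjusted p = 0.0272). Rpl21 had 217, 211 and 220.4 CPM in WT and 167, 125 and 96.9 CPM in Drp1 KO libraries (-0.74 ± 0.166, adjusted p = 0.0410). For both, Drp1 KO library 1 was the nearest to WT and library 3 the farthest, and the Drp1 KO libraries were spread more widely than the WT libraries. Both share sequence with pseudogene copies that take part of the counts. With those counts added, Rpl36a was at -0.47 (adjusted p = 0.129) and Rpl21 at -0.53 (adjusted p = 0.0920).

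Rps15a, a 40S protein that binds the small-subunit rRNA early in assembly (ENSMUSG00000008683, chromosome 7, 117703595 to 117715454, minus strand, GRCm39), had 83.7, 82.2 and 82.6 CPM in WT and 122, 134 and 126 CPM in Drp1 KO libraries. The WT libraries were nearly equal, and all Drp1 KO libraries lay above them. The log2 fold change was 0.62 ± 0.0859 (adjusted p = 0.00390), and Rps15a passed under each of 17 other settings tried. With length-scaled counts it was 1.5 (adjusted p = 0.000203), and the mean TPM was 298 ± 27.4 with WT and 792 ± 84.9 with Drp1 KO. A short transcript, described with the transcript entries, took a larger part of its counts in Drp1 KO libraries, and the main entry rose less than the gene. Values that divide by length give such a short entry more weight.

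Rps27l, the paralog of Rps27 and a known target of p53, had 11.6, 12.03 and 14.4 CPM in WT and 16.8, 23.2 and 21.3 CPM in Drp1 KO libraries, again without overlap (log2 fold change 0.69 ± 0.150, adjusted p = 0.0356). It passed under 9 of 17 other settings, and its adjusted p reached 0.188. Rps27 and Rps27l encode near-identical 40S proteins, and their mRNAs stood on opposite sides of WT. Per length, Rps27 was the more abundant, at 983 ± 152 TPM with WT and 547 ± 53.8 TPM with Drp1 KO, beside 60.5 ± 8.27 and 85.7 ± 16.6 TPM for Rps27l.

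**Figure D2:**
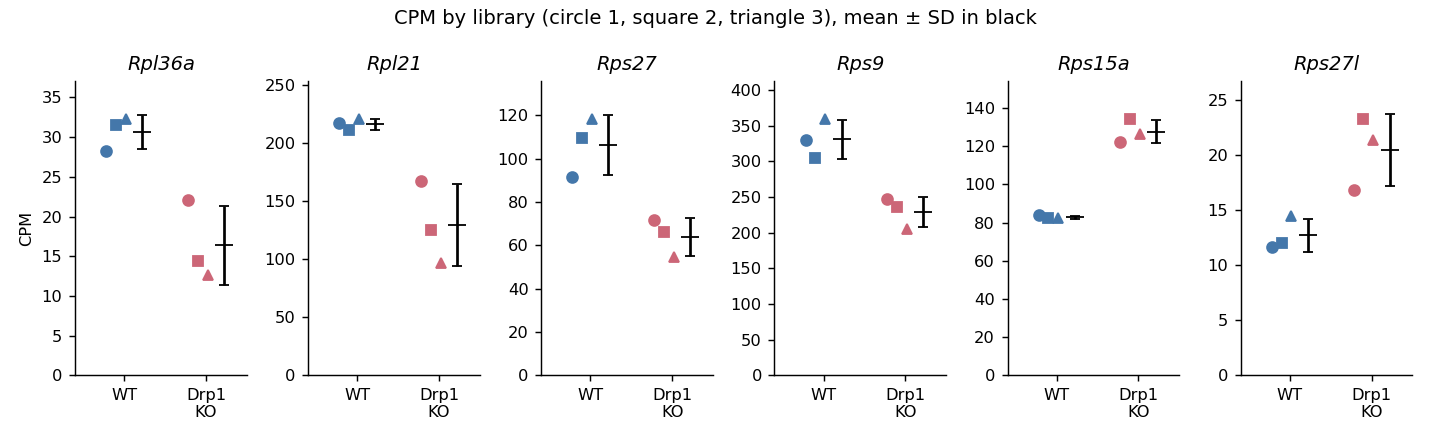
CPM (y axis, from 0) in each of the 6 libraries for 6 of the 7 RP genes with an adjusted p under 0.05; circles, squares and triangles are replicate numbers 1, 2 and 3, and black bars give the mean ± SD. In all 6 panels the WT and Drp1 KO libraries do not overlap, and for Rpl36a, Rpl21, Rps27 and Rps9 the lowest point is Drp1 KO library 3.

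The TOP motif stands at the start of an RP mRNA, so the bases around the annotated starts are shown for the genes that passed the test. RefSeq start windows (GRCm38.p6) were found for 62 of the 83 symbols, and Rpl21 is named only. Each window holds 15 bases before the start and 15 from it, written 5′ to 3′ on the gene's strand, with the longest unbroken run of C and T in capitals.
Rps27, chr3:90213634-90213663, minus strand: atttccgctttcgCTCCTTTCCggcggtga
Rps9, chr7:3704026-3704055, plus strand: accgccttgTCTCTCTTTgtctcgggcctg
Rpl36a, chrX:134585639-134585668, plus strand: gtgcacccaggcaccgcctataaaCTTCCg
Rps15a, chr7:118116133-118116162, minus strand: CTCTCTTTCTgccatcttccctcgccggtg
Rps27l, chr9:66946071-66946100, plus strand: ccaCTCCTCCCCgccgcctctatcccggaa

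Pyrimidine runs of at least 8 bases stood in the windows of Rps27, Rps9, Rps15a and Rps27l, so in genes that were lower as well as higher. The longest runs of Rps15a and Rps27l lay wholly before the annotated start. In Rps15a another run, of 8 pyrimidines, begins at the annotated start. A cytosine at the start itself with at least 4 pyrimidines after it was found for Rps27 and Rps15a, and not for Rps9, Rpl36a or Rps27l. Rps27l has another annotated start, not printed, whose longest run was 4 bases. The run of Rpl36a was 5 bases long. Among the 74 windows of RP genes, 37.8% held a run of at least 8 bases on the gene's strand, beside 12.003% of the 32851 windows of all genes in the table. Such a cytosine at the annotated start stood in 17.6% of RP windows and 2.51% of all windows. The letters CTTTCC stood in 13.5% and 1.42%. An annotated start can lie some bases away from the start used in BMDMs, and a match is a description of letters only.

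Beyond the 7 genes, 15 lower genes passed the study's criteria but not the adjusted test. The strongest by p were Rpl13, Rps21, Rps6, Rpl29, Rpl11, Rpl3 and Rps3a1, with adjusted p from 0.0678 to 0.162 and 0.00402 to 0.0176 with libraries paired by number. Rpl13 had 551, 499 and 506 CPM in WT and 427, 384 and 319.9 CPM in Drp1 KO libraries (log2 fold change -0.46 ± 0.118). Rps6 had 926, 825 and 774 CPM in WT and 703, 649 and 589 CPM in Drp1 KO libraries (-0.38 ± 0.109). Both were among the abundant RP mRNAs, and neither overlapped between groups. Rps21 was at -0.42 ± 0.115, Rps3a1 at -0.39 ± 0.132 and Rpl3, which reaches into the peptidyl transferase center, at -0.34 ± 0.109. The other 8 were Rps28, Rpl37, Rpl23, Rpl23a, Rpl36, Rps13, Rpl31 and Rpl14. With libraries paired by number, all of these but Rpl36 and Rpl31 had an adjusted p under 0.05, from 0.00555 to 0.0483. With the counts of pseudogene copies added, Rpl14, Rpl36, Rpl37 and Rps13 no longer passed the criteria, and Rps13 went from -0.36 to 0.02.

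The remaining 7 higher genes by the study's criteria were mostly of the small subunit. Rps15, a protein of the 40S head near the decoding site, had 128, 121 and 129 CPM in WT and 206, 159 and 153 CPM in Drp1 KO libraries (log2 fold change 0.46 ± 0.121, adjusted p = 0.0755). Rps3, at the mRNA entry channel, had 100.99, 96.5 and 99.6 CPM in WT and 130.1, 131 and 113 CPM in Drp1 KO libraries (0.33 ± 0.0935, adjusted p = 0.0946). Rpl39, a small protein lining the peptide tunnel, had 57.9, 47.5 and 60.7 CPM in WT and 89.8, 71.6 and 68.3 CPM in Drp1 KO libraries (0.47 ± 0.133, adjusted p = 0.0968). These 3 genes did not overlap between groups, and Drp1 KO library 1 was the highest or close to it. With libraries paired by number their adjusted p was 0.00946, 0.0198 and 0.0113.

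Rpl10, which joins the 60S subunit late in its assembly, was at 0.34 ± 0.139 (adjusted p = 0.249, and 0.0396 with pairs). Rps7, Rps18 and Rps16 were at 0.35 ± 0.0888, 0.34 ± 0.104 and 0.36 ± 0.154 (adjusted p = 0.0663, 0.126 and 0.273, and 0.0114, 0.0176 and 0.101 with pairs), and Rps16 overlapped between groups. The latter 3 turned on transcripts of types other than protein-coding. With protein-coding transcripts only, Rps7 was at -0.01, Rps18 at -0.52 and Rps16 at -0.40, and 6 higher and 24 lower RP genes passed the study's criteria in place of 9 and 20 (7.06% and 6.17% of all genes in that fit), at a median of -0.15 over the 83 genes.

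The subunits were described separately. For the 50 large-subunit genes the median was -0.12 on the log2 scale, with 17 above and 33 below 0, and 2 higher and 12 lower by the study's criteria (7.19% and 5.48% of all genes). The 33 small-subunit genes had a median of 0.01, with 17 above and 16 below 0, and 7 higher and 8 lower by the same criteria. The difference between the subunits was not tested.

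For the ribosomal stalk, which recruits translation factors, values without copies lay near WT. Its anchor Rplp0 had 1294, 1087 and 984 CPM in WT and 1027, 1003 and 939 CPM in Drp1 KO libraries (log2 fold change -0.18 ± 0.117, adjusted p = 0.512). Rplp1 was at -0.10 ± 0.110, Rplp2 at 0.00 ± 0.109 and the stalk base gene Rpl12 at -0.02 ± 0.160, all overlapping between groups, but with copies added, which hold 52.2% of its counts, Rpl12 was at -0.93 (adjusted p = 0.145). The 5S particle, in which RPL5 and RPL11 hold the 5S rRNA and can bind the p53 regulator MDM2, gave unlike values without copies. Rpl11 had 57.7, 58.2 and 59.0 CPM in WT and 50.6, 36.4 and 28.2 CPM in Drp1 KO libraries (-0.61 ± 0.176, adjusted p = 0.104, and 0.0110 with pairs). Rpl5 had 32.7, 42.2 and 47.7 CPM in WT and 46.3, 41.0 and 37.4 CPM in Drp1 KO libraries (0.02 ± 0.144, adjusted p = 0.978), but most reads that match it were counted on a pseudogene copy. With copies added, Rpl5 was at -0.30 (adjusted p = 0.123) and Rpl11 at -0.63 (adjusted p = 0.0623).

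Of 8 genes at the exit of the peptide tunnel, 0 passed the adjusted test by edgeR and 1 by DESeq2 (6.24% of all genes). Of these 8, 3 had an unadjusted p under 0.05 (as 16.4% of all genes did), and 1 was higher and 2 lower by the study's criteria (median log2 fold change -0.13). The criteria passed 7.19% of all genes as higher and 5.48% as lower. With pairs, 1 was higher and 1 lower at an adjusted p of 0.05, beside 6.73% and 5.22% of all genes. Of 18 RP genes whose human counterparts are mutated in Diamond-Blackfan anaemia, an inherited failure of red cell production, 14 lay below 0 with a median of -0.13. Among these 18, only Rps27 passed the adjusted test by edgeR (beside 3.36% of all genes) and 4 passed by DESeq2 (6.24%), and 1 was higher and 3 lower with pairs (12%). By the study's criteria 1 was higher and 4 lower, against the same 7.19% and 5.48%.

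Of the 13 paralogs tested, 3 were higher and 2 lower by the study's criteria, beside 7.19% and 5.48% of all genes. They were Rps27l, Rpl39 and Rpl10, and Rps27 and Rpl3, each described with its values. The other paralogs did not pass. Rpl7 was at -0.04 ± 0.121 and Rpl7l1 at 0.06 ± 0.0909. Rpl22, whose protein also represses the mRNA of Rpl22l1, was at 0.21 ± 0.115 (adjusted p = 0.427), and Rpl22l1 at 0.16 ± 0.108 (adjusted p = 0.524). With protein-coding transcripts only, Rpl22l1 was at -0.78 (adjusted p = 0.474). Rps4x was at 0.12 ± 0.115 (adjusted p = 0.694). The low paralogs Rps4l, Rpl3l and Rpl39l stayed under 0.62 CPM in every library, where 3 counts are worth 0.0917 to 0.136 CPM, so a difference was not detectable at this depth.

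The level of RP mRNAs as a group differed between the Drp1 KO libraries themselves. RP genes took 2.33%, 2.25% and 2.25% of counts in the WT libraries and 2.17%, 2.15% and 1.96% in the Drp1 KO libraries. All 3 Drp1 KO values lay below the WT values, with means of 2.27% ± 0.0477 and 2.09% ± 0.112 (SD, n = 3; exact two-sided permutation p = 0.1, the smallest that 3 libraries against 3 can give). The share of TPM was 6.34% ± 0.179 in WT and 5.59% ± 0.173 in Drp1 KO libraries (exact permutation p = 0.1).

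For the 80 RP genes that averaged 10 CPM or more, the median log2 distance from the WT mean was 0.05, -0.05 and 0.01 in the WT libraries. In Drp1 KO libraries 1, 2 and 3 it was 0.04, -0.05 and -0.24, while all genes of that level were at 0.07, 0.00 and -0.03. In Drp1 KO library 1, 19 RP genes were more than 0.32 above the WT mean and 8 as far below, and in library 3, 3 were above and 34 below. Single RP genes varied more within the Drp1 KO group. Over all 83 RP genes the median SD was 0.203 on the log2 scale, beside 0.136 for the 7954 genes that averaged 10 CPM or more. Within the WT group the median SDs were 0.118 for the 83 RP genes and 0.119 for the 7954. When Drp1 KO library 3 was left out, the median over the 83 genes was -0.01, with 12 higher and 9 lower by the study's criteria, beside 7.21% and 4.82% of all genes. When Drp1 KO library 1 was left out, it was -0.14, with 4 higher and 28 lower, beside 7.4% and 7.81%.

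**Figure D3:**
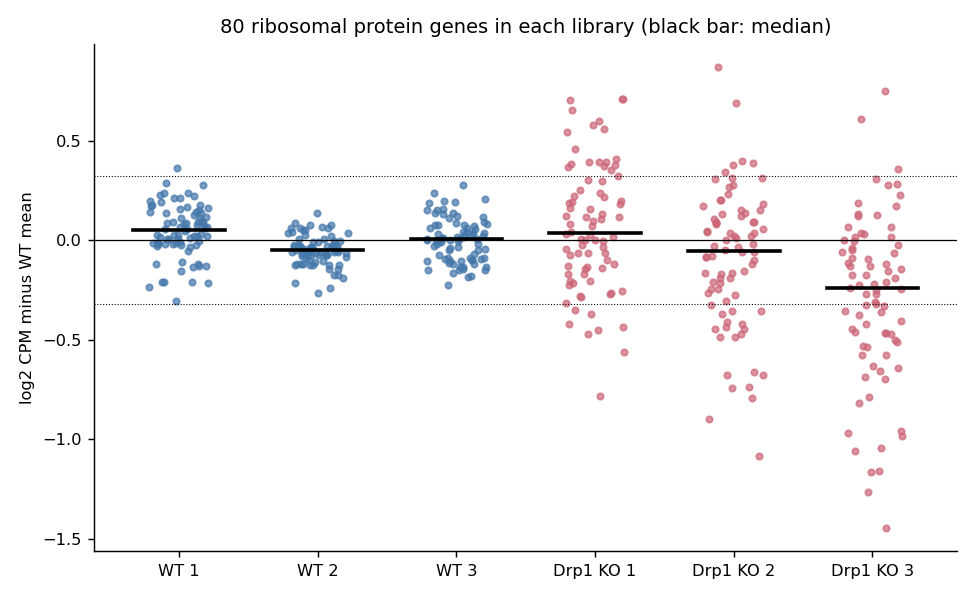
Log2 CPM minus the WT mean (y axis) for each of the 80 RP genes that average 10 CPM or more, by library (x axis); black bars are medians and dotted lines mark 0.32 either side of 0. The medians run from -0.05 to 0.05 in WT libraries, and Drp1 KO library 3 has the lowest, at -0.24, with 34 genes below the lower line.

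The deposited values are given per annotated transcript, so transcripts of the same gene were compared too. Of 437 RP transcript entries tested, 8 passed an adjusted p of 0.05 (6 higher, 2 lower), which is 1.83% of them beside 0.332% of 62020 entries of all genes (0.221% higher, 0.111% lower). The files carry no estimate of how surely a read was placed on 1 of several overlapping entries, so these p-values leave that error out. With libraries paired by number, edgeR called 0 RP entries at an adjusted p of 0.05, as it did over all entries (the lowest adjusted p of an RP entry was 0.115). With 1 library left out in turn, the adjusted p of each of the 8 rose above 0.05, to between 0.0785 and 0.173 at its highest.

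The 250-base entry Rps15a-203 had 3.77, 3.93 and 6.04 CPM in WT and 33.6, 34.6 and 36.8 CPM in Drp1 KO libraries (log2 fold change 2.93 ± 0.217, adjusted p = 0.0164), a rise from 5.64% to 27.5% of the counts of its gene. The main entry Rps15a-201 averaged 63.6 ± 3.31 CPM with WT and 72.4 ± 3.97 CPM with Drp1 KO (0.19 ± 0.1002). The short entry begins with an exon that the main entry lacks, on chromosome 7 (117715320 to 117715351, minus strand, GRCm39). That exon is joined to the second exon of the main entry, and the short entry ends after the third. The sequence of its first exon was also found in another transcript of the deposited data, while runs of 31 bases found in this entry alone cross the junction. The 30 bases across the junction set it apart, with the shared second exon in capitals.
Rps15a-203, bases 18 to 47: gtgttcatccgtgtgCCACCATGGTGCGAA

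Rps7-205, a retained-intron entry, had 37.4, 46.1 and 51.8 CPM in WT and 130.2, 129 and 132 CPM in Drp1 KO libraries (log2 fold change 1.53 ± 0.136, adjusted p = 0.0180). The coding entry Rps7-201 averaged 265 ± 9.09 CPM with WT and 262 ± 18.6 CPM with Drp1 KO (-0.02 ± 0.0923). Nearly all of the gene-level difference of Rps7 thus lay on the retained-intron entry.

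Further entries passed in both directions. Rpl10-211 had 7.502, 8.15 and 8.80 CPM in WT and 83.6, 38.6 and 90.4 CPM in Drp1 KO libraries (3.12 ± 0.327, adjusted p = 0.0268). The gene Rpl10 with its copies averaged 184 ± 8.36 CPM with WT and 235 ± 47.4 CPM with Drp1 KO, a smaller rise than that of this entry. Rpl30-206 rose from 26.3 ± 5.19 to 64.9 ± 5.50 CPM (1.301 ± 0.164, adjusted p = 0.0401) and Rpl35-203 from 2.86 ± 1.13 to 32.3 ± 9.94 CPM (3.498 ± 0.382, adjusted p = 0.0282). Rplp2-201 fell from 67.4 ± 3.11 to 35.3 ± 4.15 CPM (-0.93 ± 0.122, adjusted p = 0.0446). The gene Rplp2 as a whole was level, since its main entry Rplp2-203 averaged 261 ± 16.6 CPM with WT and 294 ± 48.2 CPM with Drp1 KO.

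Rpl29-205 was chosen after its values were seen, since the length-scaled fold change of its gene was -1.01 (adjusted p = 0.00188) beside -0.38 on counts. It had 97.4, 94.1 and 108 CPM in WT and 10.6, 9.04 and 1.11 CPM in Drp1 KO libraries (log2 fold change -3.86 ± 0.709, adjusted p = 0.0961). The WT libraries were close together and the Drp1 KO libraries far below them, with library 3 the lowest. The share of the counts of Rpl29 on this entry was 29.3% in WT and 2.50% in Drp1 KO libraries, while the entry Rpl29-201 averaged 149.6 ± 15.4 CPM with WT and 176 ± 2.32 CPM with Drp1 KO. The entry lies within the last exon of the main entries on chromosome 9 and leaves out 96 bases (106308532 to 106308627, plus strand, GRCm39), which begin with GT and end with AG. Of its 373 runs of 31 bases, 27 are found in no other matched transcript of the deposited data, and they cross the junction shown, where capitals mark the second exon.
Rpl29-205, bases 250 to 279: caaccgaagcctaagGCCCCTGTGAAGGCC

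**Figure D4:**
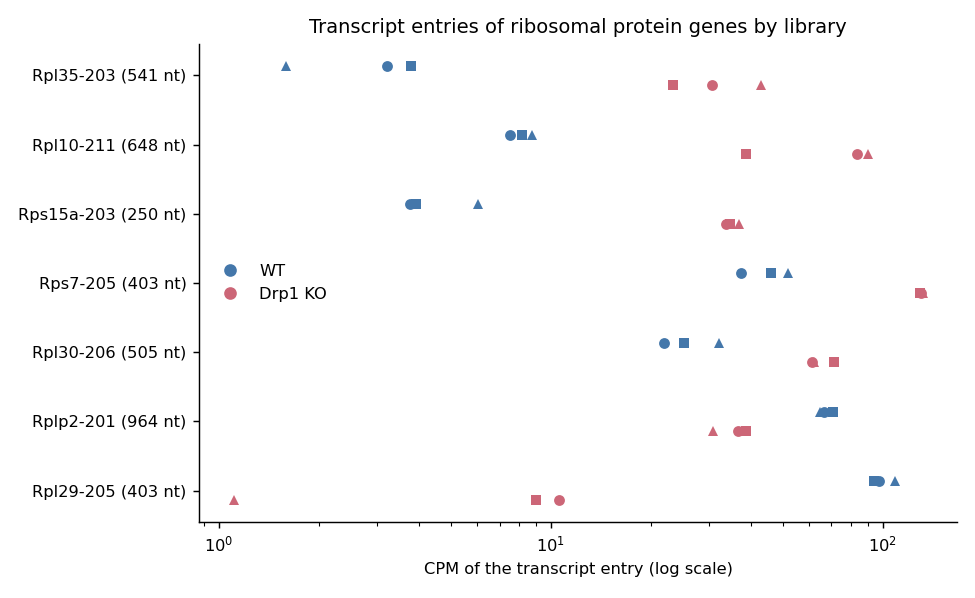
CPM (x axis, log scale) of 6 of the 8 RP transcript entries with an adjusted p under 0.05 and of Rpl29-205, by library; blue marks are WT and red marks Drp1 KO, with circles, squares and triangles for replicate numbers 1, 2 and 3. The groups do not overlap for any of the 7 entries shown, and the gap is widest for Rpl29-205 (means of 100.01 and 6.91 CPM).

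RP genes have many processed pseudogenes, copies of their mRNA inserted elsewhere in the genome, and reads that fit both were divided between them by the authors' estimation. Transcripts of pseudogenes that match an RP mRNA held 10.4% to 12.03% of all counts on RP genes and copies with WT and 10.8% to 12.3% with Drp1 KO. The share was over 10% for 20 RP genes and over 50% for 8. For Rpl5 it was 94.4%, for Rpl31 83.4%, for Rps23 80.6% and for Rps12 75.2%, so the values of these genes rest on a small part of the reads that match them. It was 0.710% for Rps15a, 0.645% for Rps27, and under 0.1% for Rps9 and Rps27l, against 61.4% for Rpl36a and 20.0% for Rpl21.

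With the counts of copies added to each gene, 5 RP genes passed the adjusted test (2 higher, 3 lower), beside 3.62% of all genes. They were the 7 without Rpl36a and Rpl21. By the study's criteria 9 were higher and 17 lower (7.55% and 5.26% of all genes in that fit), and the median log2 fold change was -0.04. Adding copies moved Rpl5 from 0.02 to -0.30 (adjusted p = 0.123) and Rpl12 from -0.02 to -0.93 (adjusted p = 0.145). The copy of Rpl12 behind this, Gm10275, was listed at 935 and 962 counts in WT libraries 1 and 2 and at 0 in the other 4 libraries. Of 544 copies with at least 10 counts, 6 were higher and 2 lower with Drp1 KO at an adjusted p of 0.05, smaller shares than the 2.29% and 1.06% of all genes, and 2 of the 6 had the same counts in every library. Among the higher was Gm12918, a copy of Rpl13, listed at 0 in the 3 WT libraries and at 232, 937 and 1664 counts in Drp1 KO libraries 1, 2 and 3 (adjusted p = 0.00133). With copies added, Rpl13 was at -0.34 (adjusted p = 0.0922).

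**Figure D5:**
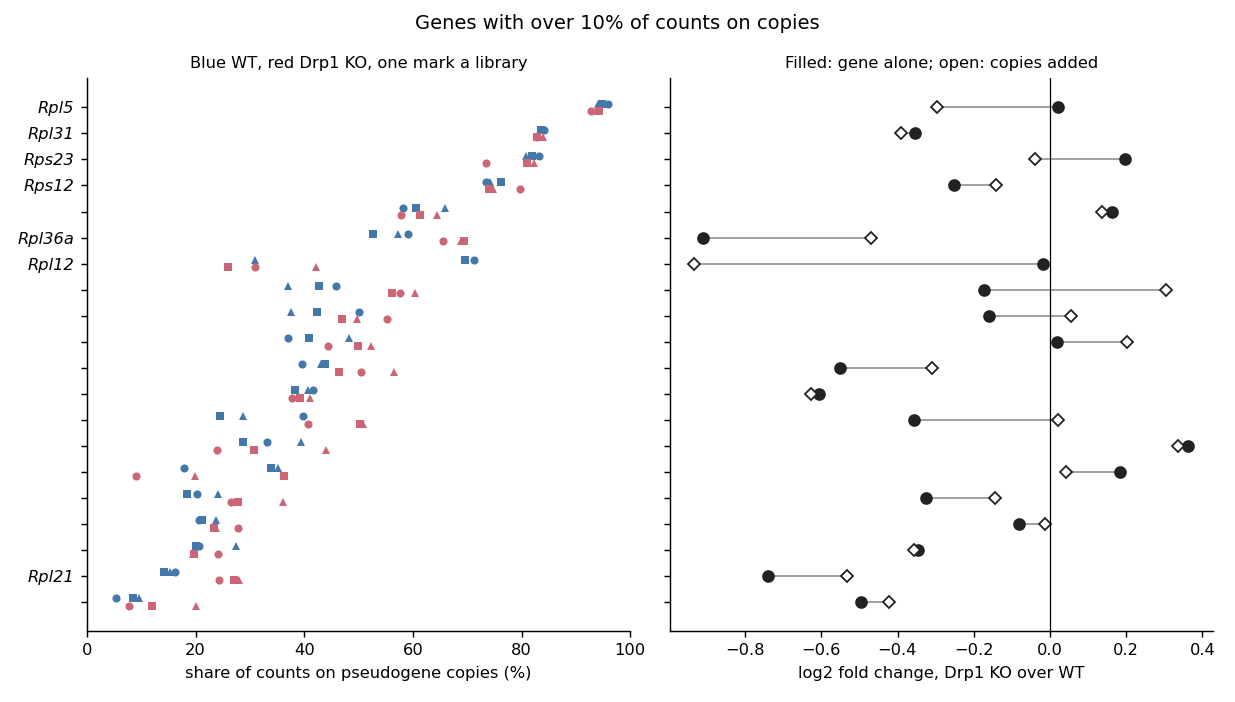
For the 20 RP genes with over 10% of counts on pseudogene copies, the left panel gives the share of counts on copies (x axis, percent) in each library, with symbols at the genes described in the text, and the right panel the log2 fold change of the gene alone (filled) and with copies added (open). Rpl5 stands highest at 94.4%, and Rpl12 moves farthest, from -0.02 to -0.93.

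Of 4 tested RP genes outside the symbol rule, 2 lay above and 2 below 0. Fau, a fusion whose processed product is the 40S protein RPS30, averaged 338 ± 26.9 CPM with WT and 237 ± 48.5 CPM with Drp1 KO (log2 fold change -0.51 ± 0.146, adjusted p = 0.0974, and 0.0123 with pairs). Rack1 and Rpl36al were at 0.10 and -0.26 (adjusted p = 0.833 and 0.456).

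Of 20 other mRNAs with a TOP motif, mostly of translation factors, 15 lay below 0, at a median of -0.09. By edgeR 0 passed the adjusted test and 5 an unadjusted p under 0.05 (16.4% of all genes), and by DESeq2 3 passed (6.24%). By the study's criteria 0 were higher and 5 lower (7.19% and 5.48% of all genes), and 6 were lower at an adjusted p of 0.05 with libraries paired by number (5.22% of all genes). Of 44 ribosome biogenesis genes, which act in rRNA synthesis, processing and subunit assembly, 0 passed the adjusted test by edgeR or DESeq2 and 8 had an unadjusted p under 0.05, near the 16.4% of all genes. Of these 44, 2 were higher and 5 lower by the study's criteria (7.19% and 5.48% of all genes), and 3 were higher and 4 lower with pairs (6.73% and 5.22%), at a median of 0.01. Of 7 dedicated chaperones of RPs, 0 passed the adjusted test by edgeR, with or without pairs, or by DESeq2. Of these 7, 2 had an unadjusted p under 0.05 (16.4% of all genes), and 1 was lower by the study's criteria (5.48%).

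Of 12 genes of the mTOR pathway that controls TOP mRNAs, Eif4e passed the test, beside 3.36% of all genes. This cap-binding translation factor averaged 89.2 ± 10.2 CPM with WT and 131 ± 18.1 CPM with Drp1 KO (log2 fold change 0.55 ± 0.125, adjusted p = 0.0418), without overlap. The median of the 12 was -0.06, with 2 higher and 0 lower by the study's criteria (7.19% and 5.48% of all genes), and 2 higher with pairs (6.73%).

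The 78 mitochondrial RP genes build the separate ribosome of the mitochondrion, and their median was 0.10 on the log2 scale, with 52 above and 26 below 0. Of these, 2 rose at an adjusted p of 0.05, Mrpl30 (0.53 ± 0.0971, adjusted p = 0.0163) and Mrpl1 (0.60 ± 0.131, adjusted p = 0.0378), beside 2.29% of all genes. By DESeq2 4 passed, beside 6.24% of all genes. By the study's criteria 6 were higher and 2 lower, beside 7.19% and 5.48% of all genes, and with pairs also 6 and 2, beside 6.73% and 5.22%. The difference between cytosolic and mitochondrial RP genes was not tested.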

How the data were processed

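Poly(A) RNA-seq of 3 WT and 3 Drp1 KO BMDM libraries was quantified by the authors with kallisto 0.46.1 against a GRCm39 transcriptome, and the deposited files give estimated counts and TPM per transcript. The labels name a stranded library kit, and whether strand was used is not given in the sources used here. The authors' own test was DESeq2, for which the sources give different versions, and none of its values were used.

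Here estimated counts were summed per gene with GENCODE names (99.4% of transcripts matched; unmatched ones held 0.542% to 0.575% of counts) and rounded. Genes with at least 10 counts in total were tested with edgeR 4.0.16 (R 4.3.3; TMM, quasi-likelihood test, no covariate, Benjamini-Hochberg over all genes), from which adjusted p-values in the text come unless another setting is named beside them. Transcript entries were tested likewise. CPM used TMM factors, and TPM are sums of the deposited values. Of the RP transcripts, 71.3% have the same length in the annotation used here as in the files, so positions and sequences of entries are those of that annotation. Pseudogene transcripts were matched to RP mRNAs with blastn 2.17.0 (at least 80% identity over at least 50% of their length), which paired 1937 of 13709.

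The members, lists and tests were chosen with earlier results of these data known. Genes named with values were those with an adjusted p under 0.05, up to 12 each way with the smallest p by the study's criteria, paralog pairs, the 5 highest and 3 lowest by WT TPM, and the 5S particle and stalk genes. Of related lists, up to 5 genes with an adjusted p under 0.05 were named, and RP genes outside the symbol rule were named in addition. Some genes that these rules select are counted but not reported here by name.

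Replicate numbers are shared by the groups. Deviations of same-numbered WT and Drp1 KO libraries correlated at 0.510, 0.204 and 0.298 over 12248 genes, each above 0.1. Of the differently numbered pairs, WT 2 with Drp1 KO 3 was also above this, at 0.326, and over RP genes WT 3 with Drp1 KO 2 was at 0.254, beside 0.185 for WT 3 with Drp1 KO 3. On the same-numbered values, which come from the data alone, same-numbered libraries were treated as pairs in the replicate block. No library was a copy of another (chi-square per degree of freedom 9.52 to 73.9 over all pairs of libraries). On counts simulated for this comparison over 18105 genes, with 197 changed 2-fold, the test recovered 54.3% and made 6 false calls. Alternatives were DESeq2 1.42.0, other scalings and filters, length-scaled counts made from TPM, the replicate block, copies added, and each library left out. Protein-coding transcripts only, and the block with copies added, were tried after the data had been seen.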

Additional observations from a re-analysis of the deposited data

How the results depend on the processing

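With 3 libraries a group, 1 library can decide a call, and the number of RP genes at an adjusted p of 0.05 changed most. It was 18 with DESeq2 (beside 6.24% of all genes) and 17 with no filter beyond 1 count (4.43%), 28 with the replicate block (12%), 29 with the block and length-scaled counts (9.34%) and 31 with the block and copies added (12.4%). Leaving out each library in turn gave 2 to 18. The median log2 fold change ran from -0.14 to -0.0087 with a library left out and was -0.15 with protein-coding transcripts only. The count by the study's criteria was 20 to 33 over the settings. The difference in the RP share of counts was negative under every setting tried, at an exact permutation p of 0.1 or 0.2. Of 625 values of 37 named genes under other settings, 503 kept their direction and side of the threshold, 69 passed where they had not, 28 no longer passed and 25 changed sign. The cause of these changes was not tested.

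With protein-coding transcripts only, Rpl13a was at 0.090, Rpl22l1 at -0.78, Rps16 at -0.40, Rps18 at -0.52 and Rps7 at -0.0060 on the log2 scale. Rpl5 was at -0.091 with length-scaled counts, -0.0013 with library size only, -0.30 with copies added, -0.080 with the replicate block and length-scaled counts and -0.30 with the replicate block and copies added. Rplp2 was at 0.041 with length-scaled counts, 0.0058 with copies added and 0.034 with the replicate block and length-scaled counts. With a library left out, Rpl12 ran from -0.12 to 0.14, Rpl13a from -0.13 to 0.018, Rpl39l from -0.22 to 1.01, Rpl3l from -0.16 to 0.90, Rpl5 from -0.12 to 0.14, Rpl7 from -0.12 to 0.089 and Rplp2 from -0.11 to 0.088.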
